A study of Mus musculus with 16 samples.

Results

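The transcripts of *Map3k20* and of 9 further genes of the JNK stress kinase pathway were followed in E15.5 mouse cerebral cortex after deletion of *Knl1*, with or without *Trp53*. The 10 genes, of 51912 listed, were found by their Ensembl identifiers. *Map3k20* was chosen by its higher level in *Knl1* cKO than in ctrl cortex, so its values are a description and carry no test. The other 9, *Map3k5*, *Map3k12*, *Map3k13*, *Map2k4*, *Map2k7*, *Mapk8*, *Mapk9*, *Mapk10* and *Jun*, were chosen for their place in the pathway.

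The ctrl group had 7 mice, of which 5 were *Casc5* wild type (2, 6, S1, S3 and T3) and 2 were *Casc5* heterozygous (T4 and T5), *Casc5* being the other name of *Knl1*. The 4 cKO mice (5, 7, S2 and F3) carried hGFAP-Cre and the *Knl1* conditional knockout, and the 4 dKO mice (T2, T8, F1 and F7) carried hGFAP-Cre with conditional knockout of *Knl1* and *Trp53*. The labels list no treatment, whole cortex of E15.5 embryos was used in all groups, and the labels do not give the Cre status of ctrl mice. The hGFAP-Cre transgene recombines in cortical neural progenitor cells and their descendants, so cells of other lineages, interneurons among them, kept the undeleted alleles. Litters held ctrl and cKO (litters 1 and 2), ctrl and dKO (litter 3) or 1 cKO and 2 dKO (litter 4). The mice of litters 1 and 2 were in batch 1, apart from ctrl mouse S1 of litter 2, in batch 2. Litters 3 and 4 were in batch 3.

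JNK signalling is a relay of kinases. MAP3 kinases such as *Map3k20* (ZAK, which senses stalled and collided ribosomes), *Map3k5* (ASK1, which responds to oxidative stress), *Map3k12* (DLK) and *Map3k13* (LZK), a related pair known for axon injury signalling in neurons, activate the MAP2 kinases *Map2k4* (MKK4) and *Map2k7* (MKK7). These phosphorylate the JNK kinases *Mapk8*, *Mapk9* and *Mapk10*, which in turn phosphorylate *Jun*, an AP-1 transcription factor. JNK acts in neuronal migration and microtubule regulation in the developing cortex as well as in stress-induced cell death, and *Mapk10* (JNK3) is the member found mainly in neurons. Transcript counts do not measure kinase activity or phosphorylation.

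Depth was unequal between the groups. The total was 399832 to 3266227 deduplicated counts in ctrl mice, 4178461 to 8800987 in cKO and 552186 to 5396803 in dKO, so every cKO mouse was deeper than every ctrl mouse. A level of 3 counts corresponded to 7.50 CPM (counts scaled to library size) in the shallowest mouse and 0.341 CPM in the deepest. Counts over the whole of *Knl1* and *Trp53* do not separate the deleted exons and therefore do not check the labels. In ctrl, cKO and dKO, *Knl1* was at 62.8 ± 13.5, 58.2 ± 14.8 and 49.8 ± 11.6 CPM (SD, n = 7, 4 and 4) and *Trp53* at 30.5 ± 10.6, 28.3 ± 4.26 and 25.1 ± 5.26 CPM. The way reads were counted bears on some genes. Of 419 protein-coding genes that lie wholly within another listed gene on the same strand, introns included, 416 (99.3%) were at 0 in all mice, against 27.1% of 786 within a gene on the opposite strand only and 18.4% of 20588 within no other gene. The counts thus behaved as counts over whole gene spans kept by strand, in which a read that fits 2 genes enters neither. *Sox2* and *Tubb3*, markers of progenitors and neurons, were listed at 0 in all 15 mice and lie wholly within *Sox2ot* and *Gm20388*, so these zeros do not measure their transcripts. The other 9 progenitor and 7 pan-neuronal markers were detected.

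Markers of other cells were summed in each mouse. The sum of 10 microglia markers was 7.06 to 24.5 CPM in ctrl, 15.6 to 28.6 in cKO and 12.9 to 26.5 in dKO mice. Of the 10, 2 had a mean of at least 5 CPM, and 1, *Lcp2*, was higher in cKO than in ctrl at FDR < 0.05. The sum of 6 endothelial markers was 62.0 to 98.0, 71.6 to 89.4 and 80.5 to 149.7 CPM in the same order. Sums of 5 meningeal and fibroblast markers reached 84.0, 4.88 and 81.3 CPM. The sum of 5 red blood cell markers was 8.47 to 21.8 CPM in ctrl, 16.8 to 20.9 in cKO and 22.2 to 30.5 in dKO mice, so that every dKO mouse was above every ctrl mouse. Of the 5, 1 had a mean of at least 5 CPM, with a log2 fold change of 0.054 in dKO versus ctrl. *Hba-a2*, below that level, was higher in dKO than in ctrl at FDR < 0.05. In the shallowest mouse, 3 counts were 7.50 CPM. The part of these cells in the levels below was not tested.

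Promoter windows of 300 bases, from 250 before to 50 after the annotated start, were taken from RefSeq (GRCm38.p6), which held 16 windows for all 10 genes. Those of 3 genes are shown, namely of the gene chosen by its level, of the JNK gene with the lowest FDR and of the transcription factor at the end of the relay. Both strands were searched for the p53 decamer (the 10-base unit that p53 binds in pairs), the AP-1 site TGACTCA, the CRE TGACGTCA and the variant TGACATCA, and capitals mark a match. The windows lie at chr2:72285387-72285686 (plus strand) for *Map3k20*, chr5:103211285-103211584 (minus strand) for *Mapk10* and chr4:95052173-95052472 (minus strand) for *Jun*.
Map3k20: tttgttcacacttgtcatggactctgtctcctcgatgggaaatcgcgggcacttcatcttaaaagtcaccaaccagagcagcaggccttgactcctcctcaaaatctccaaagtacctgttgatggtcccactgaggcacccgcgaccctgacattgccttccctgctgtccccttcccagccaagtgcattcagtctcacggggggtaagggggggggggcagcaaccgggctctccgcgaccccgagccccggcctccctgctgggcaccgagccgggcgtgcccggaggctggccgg
Mapk10: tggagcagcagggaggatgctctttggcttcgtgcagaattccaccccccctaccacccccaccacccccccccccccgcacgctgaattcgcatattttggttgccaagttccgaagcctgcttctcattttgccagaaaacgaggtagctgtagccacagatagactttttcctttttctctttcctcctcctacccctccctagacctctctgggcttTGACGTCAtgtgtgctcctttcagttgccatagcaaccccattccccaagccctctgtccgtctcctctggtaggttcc
Jun: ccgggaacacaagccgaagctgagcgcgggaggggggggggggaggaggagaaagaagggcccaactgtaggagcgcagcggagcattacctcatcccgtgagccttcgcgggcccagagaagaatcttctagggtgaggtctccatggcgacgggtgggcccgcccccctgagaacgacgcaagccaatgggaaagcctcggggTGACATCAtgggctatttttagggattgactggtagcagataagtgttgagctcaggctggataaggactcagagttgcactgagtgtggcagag

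Neither of the 2 overlapping *Map3k20* windows held a match to these letters. The *Mapk10* window held TGACGTCA from base -29 to -22 of the start, and the *Jun* window held TGACATCA from -45 to -38. One of the *Mapk8* windows held a p53 decamer, AGACATGTTT, from -25 to -16. No window of the 10 genes held TGACTCA, and no match shared bases with another. Among 32851 promoters of the same length, 8.356% held the p53 decamer, 5.202% TGACTCA, 1.79% TGACGTCA and 3.619% TGACATCA.

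*Map3k20* (ENSMUSG00000004085, GRCm38 chr2:72285637-72442610, plus strand) was at 47.7, 51.0, 46.0 and 37.96 CPM in the cKO cortices 5, 7, S2 and F3. In the ctrl cortices 2, 6, S3, S1, T3, T4 and T5 it was at 30.2, 27.2, 29.7, 23.3, 18.7, 31.1 and 26.7 CPM. In the dKO cortices T2, T8, F1 and F7 it was at 24.9, 37.0, 19.3 and 17.9 CPM. Every cKO mouse was thus above every ctrl and every dKO mouse, by the smallest margin between cKO F3 and dKO T8, whereas the dKO and ctrl ranges overlapped. The groups averaged 45.7 ± 5.55 (SD, n = 4) CPM in cKO, 26.7 ± 4.40 (n = 7) in ctrl and 24.7 ± 8.68 (n = 4) in dKO. These values rested on 167 to 404 counts in cKO, 8 to 86 in ctrl and 15 to 92 in dKO mice. In bulk cortex, a change in the share of cells of a type and a change in RNA per cell cannot be told apart.

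As a description, the edgeR log2 fold change of *Map3k20* was 0.74 ± 0.16 (SE) in cKO versus ctrl, a fold of 1.67. It was -0.23 ± 0.22 in dKO versus ctrl and 1.01 ± 0.21 in cKO versus dKO, a fold of 2.02. These comparisons share ctrl or cKO mice. In cKO versus ctrl, 83 genes (0.16% of all listed) were at FDR < 0.05, of which 30 were higher in cKO. No rank or call is given for *Map3k20*, which was chosen from that comparison. Within batch 1 (3 ctrl and 3 cKO mice) the log2 difference from ctrl was 0.76. Within batch 3 the dKO versus ctrl difference was -0.20 (3 ctrl and 4 dKO mice) and the difference of the 1 cKO from the 4 dKO mice was 0.72. TMM scaling, a factor applied on top of library size, was used throughout. In CPM scaled to library size alone, the *Map3k20* range in cKO (33.7 to 48.8) still cleared that in ctrl (20.0 to 32.3). It met the dKO range (17.0 to 39.1).

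Litters gave the same order for cKO and a divided picture for dKO. *Map3k20* in cKO was 1.72 times the ctrl mean in litter 1 (49.4 against 28.7 CPM) and 1.73 times in litter 2 (46.0 against 26.5 CPM). The litter 2 mean joined ctrl mouse S3 (29.7 CPM), of the same batch as cKO mouse S2, and ctrl mouse S1 (23.3 CPM), of batch 2. In litter 4, cKO mouse F3 at 37.96 CPM was 2.04 times the mean of its dKO littermates F1 and F7, and its counting interval (32.4 to 44.2 CPM, 95% exact Poisson) lay above theirs (14.9 to 24.7 and 14.4 to 21.9). In litter 3, the dKO mice averaged 30.9 CPM against 25.5 in their ctrl littermates, with intervals that overlapped. Of these dKO mice, T2 was at 24.9 CPM on 15 counts, below that ctrl mean, and T8 was at 37.0 CPM on 40 counts. The sign of dKO versus ctrl, -0.23 ± 0.22 (SE) in the main fit, changed in 2 other fits. The log2 fold change was 0.24 without litter 4 and 0.26 with litter as a covariate. Both values rest on the same 2 dKO mice, those of litter 3, the only litter with ctrl and dKO mice. Leaving out dKO mouse T8 gave -0.49 in dKO versus ctrl and 1.26 in cKO versus dKO, and without litter 4 cKO versus dKO was 0.56. Mouse T8 also had the highest endothelial marker sum of all mice, 149.7 CPM, and the highest meningeal sum of the dKO mice, 81.3 CPM, and the part of these in its *Map3k20* level was not tested. Mice F1 and F7 had totals of 3519529 and 5396803 counts.

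**Figure D1:**
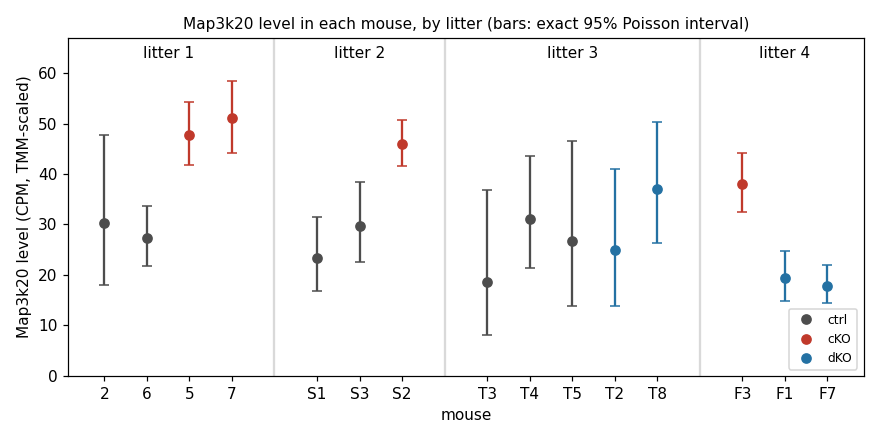
Level of *Map3k20* in CPM (vertical axis) in each of the 15 mice (horizontal axis), arranged by litter and coloured by group; bars are exact 95% Poisson intervals of the count and cover counting error only. The 4 cKO mice sit between 37.96 and 51.0 CPM, the ctrl mice between 18.7 and 31.1, and the dKO mice between 17.9 and 37.0 with the higher pair in litter 3.

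Of the other MAP3 kinases, none passed FDR < 0.05. *Map3k5* was at 23.0, 30.5, 34.2 and 23.6 CPM in the cKO cortices 5, 7, S2 and F3, and at 18.2, 16.6, 23.2 and 28.3 CPM in the dKO cortices T2, T8, F1 and F7. Its ctrl levels ran from 16.0 (T4) through a median of 26.6 to 43.7 CPM (mouse 2), so the 3 groups overlapped. The log2 fold change was -0.022 ± 0.20 (SE) in cKO versus ctrl and -0.29 ± 0.23 in dKO versus ctrl (edgeR FDR = 1 for both). The 95% interval of the cKO versus ctrl difference was -0.42 to 0.38.

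*Map3k12* was at 55.9, 59.0, 62.2 and 78.6 CPM in the cKO cortices 5, 7, S2 and F3, at 39.7 to 65.5 CPM (median 56.4) in ctrl and at 36.5, 43.4, 57.4 and 61.3 CPM in the dKO cortices T2, T8, F1 and F7. The litter 3 mice were the low ones in both ctrl and dKO. edgeR gave a log2 fold change of 0.21 ± 0.15 in cKO versus ctrl, -0.060 ± 0.17 in dKO versus ctrl and 0.31 ± 0.18 in cKO versus dKO (edgeR FDR = 1 for all). *Map3k12* shares 1573 exonic bases with *Pcbp2*, a gene on the opposite strand with 7382 counts over the 15 mice against 2512 for *Map3k12*. The strand setting of the counting is not given in the sources used here, and the values for nested genes above are those of counts kept by strand.

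*Map3k13* was between 43.3 and 45.7 CPM in the 4 cKO mice, 23.3 to 50.8 CPM (median 38.6) in ctrl and 23.2, 44.4, 36.5 and 39.8 CPM in the dKO cortices T2, T8, F1 and F7. The cKO mice lay inside the ctrl range. Its log2 fold change was 0.19 ± 0.15 in cKO versus ctrl, -0.044 ± 0.20 in dKO versus ctrl and 0.26 ± 0.16 in cKO versus dKO (edgeR FDR = 1 for all). It shares 10.56% of its span with the lincRNA *1300002E11Rik* on the same strand, where reads would enter neither gene.

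Of the 2 MAP2 kinases, only *Map2k4* had enough counts to compare. It was at 160, 149, 159 and 141 CPM in the cKO cortices 5, 7, S2 and F3 and at 148, 118, 149 and 152 CPM in the dKO cortices T2, T8, F1 and F7, within the ctrl range of 113 to 182 CPM (median 152) throughout. The log2 fold change was -0.0031 in cKO versus ctrl with a 95% interval of -0.23 to 0.22, and -0.080 in dKO versus ctrl with an interval of -0.34 to 0.18 (edgeR FDR = 1 for both). *Map2k7* had 5 counts in all 15 mice together and at most 2 in any mouse. A second protein-coding gene on the same strand, *Gm49320*, also with 5 counts, covers 9033 of the 9158 bases of its span (98.64%). As for *Sox2* and *Tubb3*, the low count therefore does not measure the transcript, and no fold change is given.

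The 3 JNK kinases had higher mean levels in cKO than in ctrl, with none at FDR < 0.05. *Mapk10* was at 736, 643, 558 and 711 CPM in the cKO cortices 5, 7, S2 and F3. In the ctrl cortices 2, 6, S3, S1, T3, T4 and T5 it was at 534, 446, 472, 526, 460, 454 and 429 CPM, and in the dKO cortices T2, T8, F1 and F7 at 419, 471, 518 and 621 CPM. The cKO and ctrl ranges were apart, and dKO mouse F7 was above cKO mouse S2. edgeR gave a log2 fold change of 0.46 ± 0.12 (SE) in cKO versus ctrl, a fold of 1.38 (edgeR FDR = 0.0540), 0.11 ± 0.13 in dKO versus ctrl (edgeR FDR = 1) and 0.39 ± 0.16 in cKO versus dKO (edgeR FDR = 0.837). A two-sided exact permutation test over mice gave p = 0.00303 for *Mapk10* in cKO versus ctrl, the smallest that 4 against 7 mice allow.

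The call for *Mapk10* depended on the test and on single mice. It passed FDR < 0.05 in 7 of 23 alternatives, among them edgeR's quasi-likelihood test (FDR = 0.00233), DESeq2 (FDR = 0.00374), and the edgeR fit without ctrl mouse 2 (FDR = 0.0189) or without cKO mouse S2 (FDR = 0.00410). With litter as a covariate its log2 fold change was 0.35 (edgeR FDR = 0.684), and within batch 1 it was 0.43 (edgeR FDR = 1). Only litters 1 and 2 held both ctrl and cKO mice, so the litter fit drew the difference from them. The ratio of cKO to ctrl means was 1.41 in litter 1 and 1.12 in litter 2, and the cKO mouse of litter 4 was 1.25 times its dKO littermates.

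Levels of cell type markers are given beside those of *Mapk10* and *Map3k20*. The summed level of 10 interneuron markers was 3058 to 4437 CPM in cKO, 2090 to 2684 in ctrl and 2238 to 2787 in dKO mice, with 2 of the 10, *Erbb4* and *Gad1*, higher in cKO than in ctrl at FDR < 0.05 and none of the 10 at 0. The sum of 8 pan-neuronal markers was 1836 to 2336 CPM in cKO, 1765 to 2189 in ctrl and 1711 to 2186 in dKO, with *Tubb3* uncounted as described above. The sum of 8 excitatory neuron markers was 1812 to 2301, 1628 to 2007 and 1628 to 2173 CPM in the same order. The sum of 10 progenitor markers was 634 to 944 CPM in cKO, 573 to 1227 in ctrl and 660 to 1094 in dKO, with *Eomes* and *Neurog2* lower in cKO at FDR < 0.05 and *Sox2* uncounted. *Map3k20* and *Mapk10* thus rested on cKO libraries that were deeper and higher in interneuron markers than all ctrl libraries. On log scales over the 15 mice, Pearson's r with the interneuron marker sum was 0.816 for *Map3k20* and 0.775 for *Mapk10*. Over the 11 ctrl and dKO mice it was 0.560 and 0.263. With the excitatory and pan-neuronal sums, r for *Mapk10* was 0.754 and 0.754 over the 15 mice, and 0.548 and 0.418 over the 11. For *Map3k20* these were 0.261 and 0.452 over the 15, and -0.457 and -0.061 over the 11. For *Map3k20*, r with the summed immediate-early genes, listed with *Jun* below, was 0.135 over the 15 mice and 0.640 over the 11. With total counts, r was 0.390 for *Map3k20* and 0.719 for *Mapk10* over the 15 mice, and -0.297 and 0.596 over the 11. The mice share group and litter, and the part of depth or of any marker sum in the levels was not tested.

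**Figure D2:**
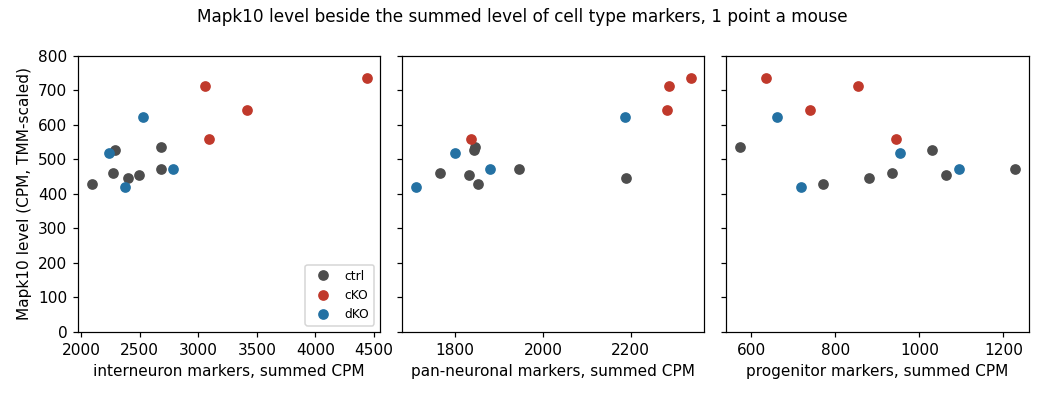
Level of *Mapk10* in CPM (vertical axis) against the summed CPM of the interneuron, pan-neuronal and progenitor markers (horizontal axes), 1 point a mouse, coloured by group. The 4 cKO mice have the highest interneuron marker sums, 3058 to 4437 CPM, and *Mapk10* at 558 to 736 CPM.

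*Mapk8* was at 178, 184, 183 and 170 CPM in the cKO cortices 5, 7, S2 and F3, at 145 to 170 CPM (median 152) in ctrl and at 147, 146, 164 and 167 CPM in the dKO cortices T2, T8, F1 and F7. The lowest cKO level, 170.24 CPM in F3, barely cleared the highest ctrl level, 169.95 CPM in S1. Its log2 fold change was 0.20 ± 0.11 in cKO versus ctrl (edgeR FDR = 1, exact permutation p = 0.00303), 0.037 ± 0.12 in dKO versus ctrl (edgeR FDR = 1) and 0.20 ± 0.12 in cKO versus dKO (edgeR FDR = 1). *Mapk9* was at 91.2, 85.8, 77.6 and 80.2 CPM in the cKO cortices 5, 7, S2 and F3, at 55.6 to 77.0 CPM (median 72.8) in ctrl and at 111, 65.6, 75.2 and 81.5 CPM in the dKO cortices T2, T8, F1 and F7. The log2 fold change was 0.21 ± 0.12 in cKO versus ctrl (edgeR FDR = 1, exact permutation p = 0.0121), 0.19 ± 0.15 in dKO versus ctrl (edgeR FDR = 1) and 0.061 ± 0.15 in cKO versus dKO (edgeR FDR = 1). The separation of cKO from ctrl in *Mapk8* and *Mapk9* ended without TMM scaling, whereas that of *Mapk10* remained (558 to 683 against 432 to 554 CPM). Groups that do not overlap give a small permutation p by themselves, and these p-values are not adjusted. The same exact permutation test in cKO versus ctrl gave p = 0.967 for *Map3k5*, 0.139 for *Map3k12*, 0.179 for *Map3k13*, 0.882 for *Map2k4* and 0.127 for *Jun*.

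*Jun* was at 27.4, 30.8, 44.6 and 28.2 CPM in the cKO cortices 5, 7, S2 and F3. In the ctrl cortices 2, 6, S3, S1, T3, T4 and T5 it was at 33.6, 35.8, 42.5, 34.8, 37.4, 49.9 and 73.4 CPM, and in the dKO cortices T2, T8, F1 and F7 at 41.4, 64.7, 27.2 and 34.9 CPM. Cortices 5, 7 and F3 were below all ctrl mice, S2 was among them, and the litter 3 mice T5 and T8 were the highest. edgeR gave a log2 fold change of -0.37 ± 0.19 in cKO versus ctrl, -0.068 ± 0.22 in dKO versus ctrl and -0.28 ± 0.25 in cKO versus dKO (edgeR FDR = 1 for all). With litter as a covariate, the cKO versus ctrl value was -0.055. *Jun* shares 232 exonic bases with its antisense transcript *Junos*, which had 528 counts over the mice against 1521 for *Jun* and lies on the opposite strand. *Jun* is also an immediate-early gene, and the summed level of 6 immediate-early genes (*Fos*, *Egr1*, *Ier2*, *Arc*, *Nr4a1* and *Btg2*) was 28.8 to 44.5 CPM in ctrl, 29.9 to 40.3 in cKO and 27.2 to 44.4 in dKO mice.

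**Figure D3:**
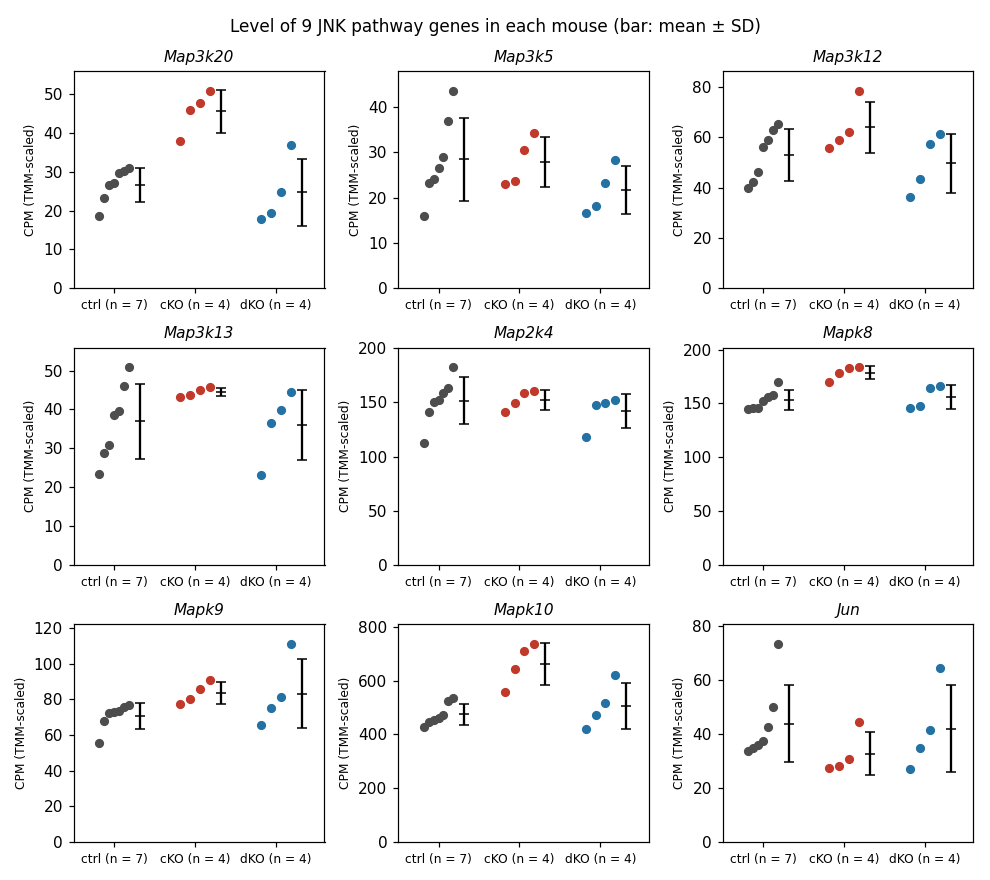
Level in CPM (vertical axes, from 0) of the 9 genes that could be measured, 1 point a mouse, with the mean and SD of each group beside the points. The cKO points lie above all ctrl points in *Map3k20*, *Mapk8*, *Mapk9* and *Mapk10*, by a margin under 1 CPM in *Mapk8* and *Mapk9*.

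Over the 9 genes other than *Map3k20*, 0 were called at FDR < 0.05 in each of the 3 comparisons by edgeR's likelihood ratio test, against 83 of 51912 genes (0.16%) in cKO versus ctrl, 26 (0.0501%) in dKO versus ctrl and 27 (0.052%) in cKO versus dKO. A count of 0 among 9 genes is near these shares. The quasi-likelihood test called 1 of them, *Mapk10*, in cKO versus ctrl, where it called 352 of all listed genes (0.678%), and 0 in dKO versus ctrl and cKO versus dKO, where it called 0.218% and 0.354%. DESeq2 also called *Mapk10* alone, in cKO versus ctrl, against 138 of the 13931 genes to which it gave an adjusted p (0.991%), and no member in cKO versus dKO (0.0312% of 22413 genes). In dKO versus ctrl it gave an adjusted p to only *Map2k4*, *Mapk8* and *Mapk10* of the members and called none of them (0.309% of 2593 genes called). At an unadjusted p under 0.05, 1 of the 8 genes with a mean of at least 5 CPM (*Map2k7* falls out) passed in cKO versus ctrl, against 10.4% of the 10855 genes at that level, 0 in dKO versus ctrl against 5.73%, and 1 in cKO versus dKO against 4.06%. Both passing values were those of *Mapk10*, and 1 of 8 is near the background.

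In cKO versus ctrl, 3 of the 8 genes, *Mapk8*, *Mapk9* and *Mapk10*, had groups that did not overlap, against 1.25% of genes. In dKO versus ctrl it was 0 of 8 against 0.673%, and in cKO versus dKO 1 of 8, *Mapk8*, against 3.88%. Without TMM scaling the counts were 1 of 8 against 0.811% of genes, 0 against 0.682% and 0 against 2.51%. The median log2 fold change of the 8 genes was 0.19 in cKO versus ctrl, beside 0.037 for all genes with at least 5 CPM, and 5 of the 8 were positive. It was -0.052 beside 0.016 in dKO versus ctrl, with 3 positive, and 0.23 beside 0.053 in cKO versus dKO, with 7 positive. Of all 10855 genes with at least 5 CPM, 6353 were positive in cKO versus ctrl, 5823 in dKO versus ctrl and 6720 in cKO versus dKO. The cKO and ctrl mice enter more than one of these comparisons.

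**Figure D4:**
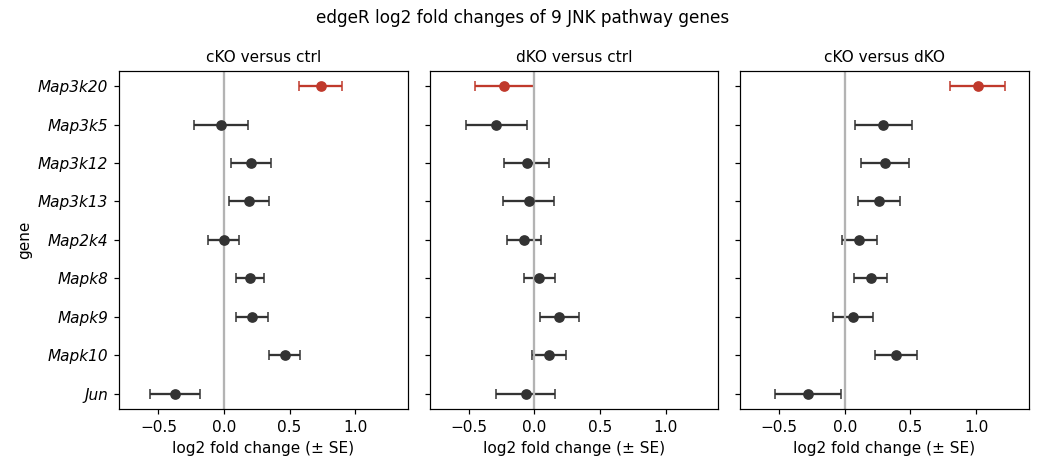
edgeR log2 fold changes (horizontal axes) with their SE for the 9 measured genes (vertical axis) in the 3 comparisons, *Map3k20* in red. *Map3k20* is at 0.74 in cKO versus ctrl and 1.01 in cKO versus dKO, and the other genes lie between -0.37 and 0.46 in all 3 panels.

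Levels of different genes depended on the length they were divided by. Per kb of gene span, the feature the counts behaved as, the mean over all 15 mice was 12.7 ± 4.20 (SD) CPM for *Jun*, whose gene has no intron, 2.84 ± 0.59 for *Map3k12*, 2.32 ± 0.20 for *Mapk8*, 1.95 ± 0.32 for *Mapk9*, 1.76 ± 0.33 for *Mapk10* and 1.49 ± 0.17 for *Map2k4*. The MAP3 kinases *Map3k13* at 0.28 ± 0.061, *Map3k20* at 0.20 ± 0.068 and *Map3k5* at 0.13 ± 0.037 CPM per kb of span were lowest. Per kb of exon, *Mapk10* was highest at 47.9 ± 9.10 CPM and *Map3k20* lowest at 3.07 ± 1.04, with *Map3k13* and *Map3k5* at 4.44 ± 0.97 and 4.35 ± 1.25. The same 3 MAP3 kinases, *Map3k20* among them, were thus the lowest of the 9 measured genes on both lengths, and since intronic and exonic reads cannot be told apart in these counts, no finer order is given.

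The genes most like *Map3k20* were looked for by Pearson's r of log2 CPM over the 15 mice, among 9177 genes with a mean of at least 10 CPM. The 5 highest were *Cdk14* (r = 0.837, Spearman's rho = 0.764), a cyclin-dependent kinase, *Sox2ot* (0.824, 0.829), a long non-coding RNA whose locus holds *Sox2*, *Evl* (0.822, 0.721), an actin regulator, *Pou3f4* (0.805, 0.832), a POU domain transcription factor, and *Flrt2* (0.787, 0.707), a membrane protein of axon guidance and cell adhesion. The points share group, litter and depth, and these values are a description. *Flrt2* was at 369 to 464 CPM in cKO, 286 to 361 in ctrl and 298 to 364 in dKO mice, so that the cKO mice were apart. Its choice by likeness to *Map3k20*, itself chosen for its level in cKO, favours such a separation. The levels of *Cdk14* were 467 to 655 CPM in cKO, 440 to 500 in ctrl and 398 to 480 in dKO, with overlap. The cKO levels of *Sox2ot*, *Evl* and *Pou3f4* also overlapped those in ctrl and dKO. Among the pathway genes, *Map3k13* (r = 0.593), *Mapk8* (0.484) and *Mapk10* (0.469) were most like *Map3k20*, and *Map2k4* was least so (-0.14).

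Around the relay, 6 lists of 60 further genes were examined, of which 46 had a mean of at least 5 CPM. No gene of these lists passed FDR < 0.05 in edgeR's likelihood ratio test in any comparison. At an unadjusted p under 0.05, 4 of the 46 were higher and 1 lower in cKO versus ctrl, against 10.4% of all genes at that level in both directions. In dKO versus ctrl 0 were higher and 1 lower, against 5.73%, and in cKO versus dKO 2 were higher and 0 lower, against 4.06%. These counts are near the background or below it. The median log2 fold change of the 46 was 0.064 in cKO versus ctrl and 0.030 in dKO versus ctrl, near those of all genes.

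Of the 6 genes listed as cytoskeletal substrates of JNK, most but not all shape microtubules in migrating and growing neurons. All 6 log2 fold changes in cKO versus ctrl were positive with a median of 0.28, and 4 passed the unadjusted threshold. Of all 10855 genes with at least 5 CPM, 6353 were positive and 10.4% passed it. The lowest p was that of *Stmn2*, a tubulin-binding protein of growing axons, at 222 to 320 CPM in cKO and 147 to 258 in ctrl mice (log2 fold change 0.44 ± 0.15, edgeR FDR = 0.358). Most of the 6 are also genes of neurons, whose pan-neuronal marker sums are given above. In dKO versus ctrl the median was 0.095, with *Sh3bp5*, a JNK-binding protein, lowest in p (0.30 ± 0.16, edgeR FDR = 1), and in cKO versus dKO it was 0.26, with *Dcx*, the microtubule protein doublecortin, lowest in p (0.31 ± 0.14, edgeR FDR = 1).

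Of the 6 genes listed as JNK phosphatases with at least 5 CPM, 5 had a negative log2 fold change in cKO versus ctrl, with a median of -0.19. *Dusp16*, a dual-specificity phosphatase with a preference for JNK, was at 25.2 to 39.0 CPM in cKO, 35.8 to 60.5 in ctrl and 26.2 to 50.8 in dKO mice. Its log2 fold change was -0.59 ± 0.18 in cKO versus ctrl (edgeR FDR = 0.193) and -0.41 ± 0.20 in dKO versus ctrl (edgeR FDR = 1), with groups that overlapped. The median of the phosphatases was -0.095 in dKO versus ctrl and -0.062 in cKO versus dKO, where *Dusp4* had the lowest p (0.23 ± 0.20, edgeR FDR = 1).

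The 17 MAP3 and MAP4 kinases with at least 5 CPM had a median of 0.065 in cKO versus ctrl and 0.048 in dKO versus ctrl, with the lowest p in *Map3k2* (0.22 ± 0.12, edgeR FDR = 1) and *Map3k10* (0.20 ± 0.17, edgeR FDR = 1). In cKO versus dKO the lowest p of that list was that of *Map3k6*, which had at most 6 counts in any mouse. The 6 JNK scaffolds had medians of 0.053 and -0.015, led by *Mapk8ip2* (0.16 ± 0.15, edgeR FDR = 1) and *Spag9* (-0.17 ± 0.12, edgeR FDR = 1). *Spag9*, which binds JNK and kinesin, also led cKO versus dKO (0.23 ± 0.13, edgeR FDR = 1).

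The 6 AP-1 and other transcription factor substrates with at least 5 CPM had medians of 0.071 in cKO versus ctrl and 0.045 in dKO versus ctrl, and *Atf2* led cKO versus dKO (0.24 ± 0.14, edgeR FDR = 1). *Fos*, the partner of *Jun* in AP-1, had the lowest p of its list against ctrl, but with a maximum of 6 counts a mouse and 1 count in the 7 ctrl mice together, so no fold is given. In the p38 arm, the 5 genes with at least 5 CPM had medians of -0.14 in cKO versus ctrl and -0.10 in dKO versus ctrl, where *Map2k6* had the lowest p (-0.21 ± 0.13, edgeR FDR = 1). *Mapkapk3*, a kinase downstream of p38, had 5 to 27 counts in cKO (1.02 to 4.32 CPM), 0 to 4 in ctrl and 1 to 5 in dKO mice. It had the lowest p of its list in cKO versus ctrl (edgeR FDR = 0.429) and in cKO versus dKO (edgeR FDR = 1), at levels near the floor of the shallow mice.

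**Figure D5:**
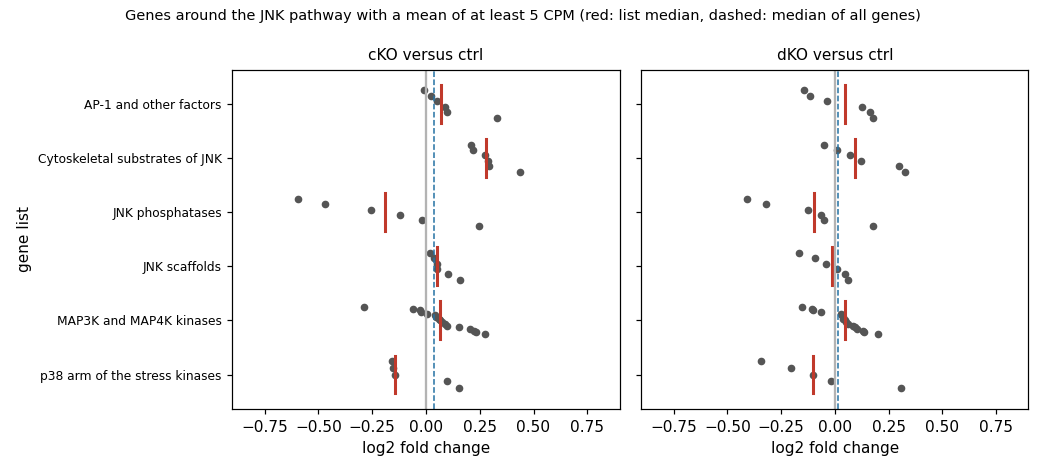
edgeR log2 fold changes (horizontal axes) of the genes with a mean of at least 5 CPM in 6 lists around the JNK pathway (vertical axis), in cKO versus ctrl and dKO versus ctrl; each point is a gene, red bars are list medians and the dashed line is the median of all genes at that level. The genes listed as cytoskeletal substrates lie to the right of 0 in cKO versus ctrl (median 0.28) and the phosphatases mostly to the left (median -0.19), with no gene at FDR < 0.05.

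The interaction of genotype and sex passed FDR < 0.05 for none of the 10 genes in cKO versus ctrl or dKO versus ctrl (edgeR interaction term). The lowest p was that of *Map3k5* in cKO versus ctrl, with an interaction of -1.04 on the log2 scale (edgeR FDR = 0.940 over all genes).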

How the data were processed

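Whole E15.5 cortex was profiled by UMI RNA-seq (ClickSeq, rRNA-depleted, random-primed) in 16 libraries of 15 mice. The deposited counts are whole, deduplicated reads per gene and library, not normalized. The authors trimmed reads with cutadapt 1.13, aligned them to GRCm38 with STAR 2.5.2a, collapsed UMIs with UMI-tools 0.5.3 and counted with htseq-count (HTSeq 0.6.1p1, intersection-nonempty). Counting behaved as over whole gene spans by strand. Ambiguous reads were 2.252 to 2.561% of the reads that were counted or ambiguous in each library. They stayed out, as did the other summary lines.

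A GENCODE annotation of GRCm38 gave names to 51633 of 51912 identifiers. Libraries S2 and S2b differed by close to sampling noise (chi-square per degree of freedom 1.136, against 3.564 to 27.42 for other pairs of cKO libraries) and were summed as 1 mouse. Comparisons were fitted separately, each on its 2 groups, in R 4.3.3 with edgeR 4.0.16 (TMM, estimateDisp, glmFit, glmLRT, no covariates, all listed genes, Benjamini–Hochberg FDR, threshold 0.05). CPM was TMM-scaled over all 15 mice; log2 CPM used a prior count of 2. For single genes, mice were also permuted between groups (exact test, two-sided). Alternatives included DESeq2 1.42.0, the quasi-likelihood test, filtering, batch, sex and litter covariates, and leaving out mice. Floors and the Poisson intervals of CPM cover counting error only. The 95% intervals of log2 fold changes rest on the SE of the edgeR fit, which includes the spread between mice. The p-values set a difference against the spread between these mice.

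The members and lists were chosen with earlier results of these data known. Named genes are the 10 members, *Knl1* and *Trp53*, list genes at FDR < 0.05 or with the smallest p of a list in a comparison, the 5 genes most like *Map3k20*, and genes overlapping a member. Other markers named with their sums were chosen after their values were seen.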

Additional observations from a re-analysis of the deposited data

Results flagged for a closer look

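A highest or lowest mouse stood apart from the rest of its group, by Dixon's test at the 95% level, in 2 of 27 combinations of gene and group tested. Chance flags about 1 in 20 groups. *Map2k4* was at 118.27 CPM (128 counts) in dKO mouse T8, below the 147.53 to 151.74 CPM of the other dKO mice. *Jun* was at 73.356 CPM (33 counts) in ctrl mouse T5, above the 33.595 to 49.871 CPM of the other ctrl mice.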

How the results depend on the processing

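Of the 9 genes other than *Map3k20*, the number past FDR < 0.05 in cKO versus ctrl went from 0 to 1 (*Mapk10*) with the quasi-likelihood test, DESeq2, filterByExpr, sex as a covariate and library S2 alone, and was 0 to 1 over fits leaving out 1 mouse; in the other 2 comparisons it stayed 0 in all alternatives run. The *Map3k20* log2 fold change in cKO versus ctrl was 0.66 (batch covariate) to 0.81 (without cKO F3) over 23 alternatives, and 0.69 to 0.81 leaving out 1 mouse. In dKO versus ctrl it was 0.26 with litter as a covariate, 0.24 without litter 4 and -0.49 to -0.053 leaving out 1 mouse. In cKO versus dKO it was 0.56 without litter 4 and 0.85 to 1.26 leaving out 1 mouse.

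Signs of other members changed as follows, with no value past the threshold after the change; *Map3k5* in dKO versus ctrl (-0.29) and cKO versus dKO (0.29) and *Jun* in cKO versus dKO (-0.28) were among them. In cKO versus ctrl, *Map2k4* was 0.012 with all 3 groups in one fit, 0.012 with batch and 0.091 with litter as a covariate, 0.063 with wild-type ctrl mice, 0.14 in batch 1 and 0.032 with library S2 alone. *Map3k5* was 0.050 with batch as a covariate, 0.038 in batch 1 and 0.014 with library S2b alone, and *Map3k12* was -0.020 with litter as a covariate. In dKO versus ctrl, *Map3k5* was 0.11 with batch as a covariate and 0.087 in batch 3, *Map3k12* 0.27 and 0.26, *Mapk8* -0.0068 with litter as a covariate and -0.066 without litter 4, *Mapk10* -0.083 without litter 4 and *Map3k13* 0.0011 with wild-type ctrl mice. *Jun* was 0.060 with litter as a covariate, 0.12 with wild-type ctrl mice and 0.38 without litter 4. In cKO versus dKO, *Map2k4* was -0.0028 with batch and -0.082 with litter as a covariate, *Map3k5* -0.12 with litter as a covariate and *Mapk9* -0.0035 in batch 3 and -0.027 without litter 4. Leaving out 1 mouse, the signs varied for *Map3k5* (-0.14 to 0.096) and *Map2k4* (-0.030 to 0.054) in cKO versus ctrl, for *Map3k12* (-0.17 to 0.014), *Map3k13* (-0.12 to 0.043) and *Jun* (-0.35 to 0.11) in dKO versus ctrl, and for *Mapk9* (-0.013 to 0.15) and *Jun* (-0.49 to 0.0089) in cKO versus dKO. The causes were not tested.

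Of 690 alternative values, 622 kept their direction and side of the threshold or stayed within 1 SD or 1.5 times, and 49 log2 fold changes changed sign, 2 of them those of *Map3k20* in dKO versus ctrl. Over all genes, the 83, 26 and 27 called in the 3 comparisons became 13 to 373, 0 to 113 and 1 to 184. That non-overlap was recounted without TMM scaling was chosen after seeing the data. The depth of the shallow ctrl and dKO mice, 8 to 33 *Map3k20* counts in litter 3 ctrl mice, limits what their levels can show. Batch and genotype are confounded in part, since no dKO mouse was outside batch 3. The labels give the groups no shared replicate numbers, and the litter, which they do share, entered as the covariate above. Such a fit draws the difference only from litters that held both groups. These were litters 1 and 2 for cKO versus ctrl and litter 3 for dKO versus ctrl. For cKO versus dKO it was litter 4, with 1 cKO and 2 dKO mice.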
